A study of Mus musculus with 13 samples.

Results

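The cells described here were mouse interfollicular keratinocytes that carried the keratins of the spinous layer and at most 1 of 6 transcripts of dividing cells. A cell was taken when its Krt1 and Krt10 UMIs together reached at least 100 per 10000 UMIs of the cell and exceeded those of Krt5 and Krt14, when at most 1 of the 6 cycle genes Mki67, Top2a, Ube2c, Cdk1, Ccnb1 and Rrm2 was detected, when Lor, Flg, Hrnr and Ivl together stayed under 20 per 10000, and when Krt6a and Sprr2a3 together stayed under 5 per 10000. A UMI is a molecular tag that counts 1 captured transcript. The rule took 3117 cells, 3.60% of the 86507 cells that passed the limits on detected genes and mitochondrial UMIs, out of 97363 barcodes. Because the cells were chosen by their measured UMIs of these 16 genes, the levels of the 16 are given below only as a description. The limits were not gaps in the data, since 100 members had 100 to 120 UMIs of Krt1 and Krt10 per 10000 and 107 cells that met every other condition had 80 to 100. Likewise, 48 members had 10 to 20 UMIs per 10000 of the 4 late genes, and 45 cells just outside had 20 to 30. A single cycle gene was detected in 1151 members.

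The study asked how epidermal differentiation unfolds before birth and how it changes without Grhl3, a Grainyhead-like transcription factor of surface epithelia. Droplet libraries counting the 3' ends of transcripts were made from C57BL/6 mice that were either wild type (WT) or lacked Grhl3 (Grhl3-/-), with 2 libraries of each genotype at E14.5, at E16.5 and at P0, the day of birth. Embryonic libraries held all cells of the dorsal skin, whereas P0 libraries held epidermis separated from the dermis, so age and preparation cannot be told apart between E16.5 and P0. The animals were littermates, the Grhl3-/- embryos had spina bifida, and the mutation was carried in every cell of the body, so that keratinocytes and their surroundings lacked Grhl3 alike. An additional P0 WT library had been made with the earlier v1 chemistry, unlike the v2 chemistry of the other 12, and entered no main test.

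In the epidermis, basal keratinocytes express Krt5 and Krt14 and rest on the basement membrane through hemidesmosomes. A keratinocyte that leaves this layer switches to the keratin pair Krt1 and Krt10, strengthens its desmosomes and becomes a spinous cell. Granular cells above then make the loricrin and filaggrin of the cornified envelope and the lipids that seal the skin, and Grhl3 is known as an activator of this late barrier program.

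Total counts ran from 49245953 to 107038146 UMIs, and the median member held 7202 to 14553 UMIs. The sums over members that entered the test ran from 514976 UMIs in E16.5 Grhl3-/- 2 to 8428495 in P0 WT 2. Groups were small at E14.5 in WT, with 41 and 60 members, and at E16.5 in Grhl3-/-, with 72 and 38. In P0 Grhl3-/- 2, 82 of 124 members (66.1%) had under 0.5% mitochondrial UMIs, against 2 of 506, 3 of 588 and 5 of 167 in the other P0 v2 libraries, and the median member there had 0.0812% against 3.12 to 3.99%. Among the other kept cells of the same library, 1.01% lay under that limit. These 82 cells held 414 CPM of the nuclear RNA Malat1, where CPM are UMIs per 1000000 UMIs summed over the cells in question in a library, against 11452 CPM in the remaining members of the library. For most lists the counts at P0, and for some genes the levels, are therefore also given without the members under 0.5%. Over all members, P0 Grhl3-/- 1 differed in another way: Krt5 and Krt14 made up a median of 12.2% of the 4 keratins per member. The other 3 P0 v2 libraries had 0.529 to 1.04%. The median of Grhl3-/- 2 was not computed without its members under 0.5%. Transcripts of other lineages were frequent before birth, and 58.3 to 67.6% of the E16.5 members, 29.3 to 48.3% of the E14.5 members but 2.59 to 6.92% of the P0 members held at least 2 UMIs of each of at least 2 marker genes of 1 other cell type. No member barcode was a member in another v2 library, while 248 of the 2576 v2 member barcodes were also carried by a kept cell of another. The sexes were not balanced within groups: by Xist and the Y-linked Ddx3y and Eif2s3y, all 5 P0 libraries and both E14.5 Grhl3-/- libraries were male and both E16.5 WT libraries female. An alternative left out the 5 sex-linked genes Xist, Ddx3y, Eif2s3y, Kdm5d and Uty. It could remove no more than 5 calls from any comparison and removed at most 5. Other effects of sex were not tested, and between E16.5 and P0 in WT sex and age cannot be told apart.

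**Figure D1:**
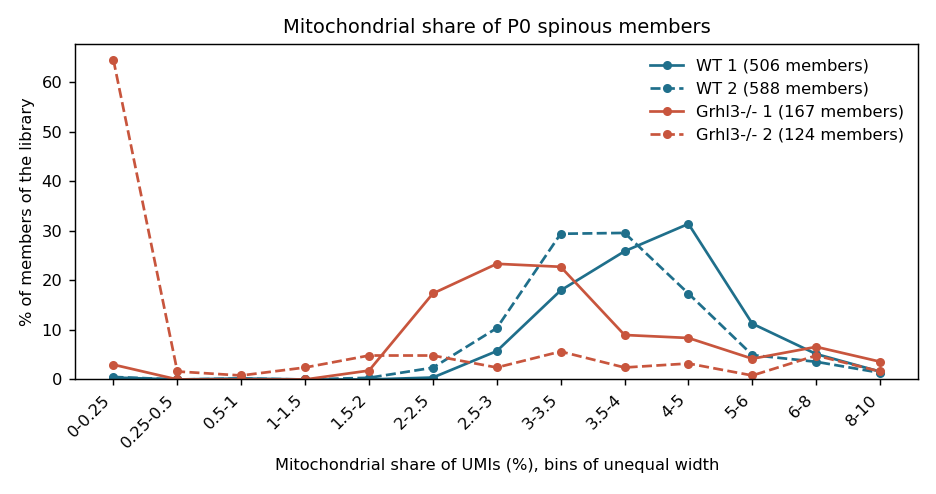
Percentage of the members of each P0 v2 library (vertical axis) in bins of the mitochondrial share of their UMIs (horizontal axis, percent, bins of unequal width). The line of Grhl3-/- 2 (dashed, red) peaks below 0.5%, where 66.1% of its members lay, and the other 3 lines peak above it.

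The 3 markers of the spinous layer that the rule did not use were present in the members of all 13 libraries. Krtdap, which encodes a small secreted protein of differentiating keratinocytes, stood at 2756 to 8635 CPM in the members, at 116 to 2499.6 CPM in basal cells (Krt5 and Krt14 at least 100 per 10000 and not below Krt1 and Krt10) and at 21.6 to 387 CPM in cells of other lineages. Them5, an acyl-CoA thioesterase gene, stood at 225 to 983 CPM in the members and at most at 52.2 CPM in basal cells. Both held their order in every library, although E14.5 libraries held only 3 to 7 basal cells each. The 3 markers did not set the members apart from granular cells, those over the limit on late genes. Summed, they stood at 13272 to 18161 CPM in P0 WT members and at 13768 to 21506 CPM in granular cells of the same libraries. Dividing suprabasal cells were lower than the members in most libraries, at 10845 to 14123 CPM in P0 WT. Cycle genes that the rule did not use were lower than in dividing suprabasal cells but not absent, with summed levels of 2245 to 2808 CPM in embryonic WT members against 6569 to 11110 CPM in the dividing cells of the same libraries.

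Ly6d, a surface antigen gene of the Ly6 family, did not mark the members equally at all ages. It stood at 895 and 370.3 CPM in E14.5 WT, and at 445 and 593 CPM in E14.5 Grhl3-/-. From E16.5 on it ranged from 2227 to 10361 CPM. Ly6d was therefore lower at E14.5 than later, and no E14.5 library reached the lowest later one. Krt1 and Krt10 themselves, used by the rule, stood at 6453 to 9481 and 9762 to 12009 CPM at E14.5 and at 17443 to 31813 and 22071 to 42739 CPM from E16.5 on.

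Grhl3 itself (chr4:135541888-135573630, minus strand, GRCm38) was read in members of both genotypes. Its level was 107 and 131 CPM in E14.5 WT against 56.3 and 67.0 CPM in Grhl3-/-, 35.4 and 29.7 against 16.3 and 7.71 CPM at E16.5, and 22.6 and 20.3 against 11.3 and 21 CPM at P0. Both Grhl3-/- libraries lay below both WT libraries at E14.5 and E16.5, but at P0 Grhl3-/- 2 lay between the WT libraries and fell to 11.4 CPM without its members of low mitochondrial share. None of the 3 differences passed the test across all genes (edgeR quasi-likelihood test, adjusted p = 0.11, 0.32 and 0.35). The sources used here do not place the deletion on the transcript, and 3' tags can lie outside it, so these values do not check the genotype. In WT the level fell with age, by 1.78 on the log2 scale from E14.5 to E16.5 (edgeR, adjusted p = 0.00081).

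Spinous members were counted among the cells with at least 100 UMIs per 10000 of Krt1, Krt10, Krt5 and Krt14 together. At E14.5 these cells included only 7 and 3 basal cells in WT and 4 and 7 in Grhl3-/-, beside 38 and 38, and 51 and 146 dividing ones, whereas P0 libraries held 294 to 1123 basal cells. The share at E14.5 was therefore mainly one among suprabasal cells, not of the epidermis, and the ages do not share a scale. Members made up 39.4% and 45.5% in E14.5 WT and 61.7% and 56.4% in E14.5 Grhl3-/-. At E16.5 the shares were 19.2% and 21.4% in WT against 18.4% and 12.1% in Grhl3-/-. At P0 they were 36.3% and 43.1% in WT against 7.44% and 12.4% in Grhl3-/-, and without the members of low mitochondrial share the latter were 7.26% and 4.83%. The Grhl3-/- libraries lay above WT at E14.5 and below it at both later ages, with no overlap at any age. Exact 95% binomial intervals, which cover counting error only, were widest at E14.5 (30 to 49.5% for the 41 members of WT 1) and narrow at P0 (33.7 to 38.9% in WT 1 and 6.38 to 8.60% in Grhl3-/- 1).

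The mean difference over the 3 ages was -6.09 percentage points and did not pass a two-sided exact permutation test with genotype permuted within age (p = 0.370, smallest possible p = 0.00926). By age, the differences were 16.6, -5.07 and -29.8 points, and within a single age the exact permutation test of 2 against 2 libraries cannot go below p = 0.333. The E14.5 difference exceeded the P0 difference by 46.4 points, with the unlike cells of the 2 ages as given above, which gave the smallest p that 36 arrangements allow (exact permutation test, p = 0.0556). The E14.5 difference was 0.0893 points when Krt1 and Krt10 had to reach 200 UMIs per 10000. The v1 WT library held 19.1%, between the P0 WT and Grhl3-/- v2 libraries. Of the Krt1 and Krt10 cells with neither late nor alarm genes over the limits, some were dividing (2 or more of the 6 cycle genes). These dividing cells took 48.1% and 38.8% in E14.5 WT against 27.9% and 30.6% in Grhl3-/-. At E16.5 they took 24.5% and 23.3% in WT against 30.1% and 24% in Grhl3-/-. At P0 they took 17.3% and 14.4% in v2 WT against 21.2% and 21% in Grhl3-/-. The v1 WT library also had 21% and so lay with the Grhl3-/- libraries. The 21% of Grhl3-/- 2 counts its members of low mitochondrial share and was not computed without them. Granular cells, counted by the same limits with the 4 late genes at 20 or more per 10000, numbered 70 and 68 in P0 WT against 0 and 10 in Grhl3-/-. They were counted among 1395 and 1364 against 2246 and 1003 cells with interfollicular keratins. The v1 WT library had 22 among 2828. The limit on Krt6a and Sprr2a3 removed 15 and 5 cells in v2 P0 WT and 24 and 66 in Grhl3-/- from members and granular cells alike. These cells stayed in the total over which the member shares were taken.

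**Figure D2:**
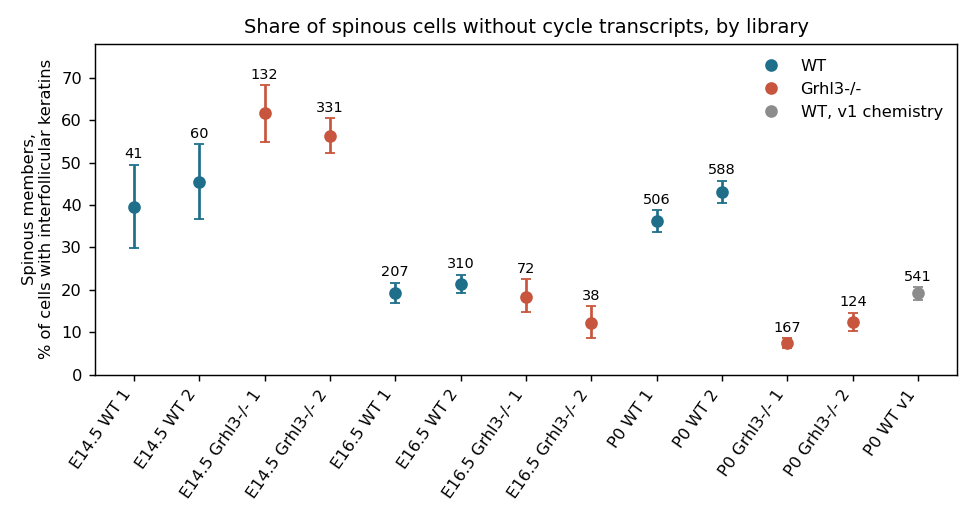
Spinous members as a percentage of all cells with interfollicular keratins (vertical axis) in each of the 13 libraries (horizontal axis). Bars are exact 95% binomial intervals. The P0 Grhl3-/- libraries, at 7.44% and 12.4% with the members of low mitochondrial share counted, sit below every WT library of that age, and the E14.5 Grhl3-/- libraries, at 61.7% and 56.4%, above both WT libraries.

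The members were also classed by the share of Krt5 and Krt14 among the 4 keratins. Their position in the tissue was not measured. Of the 3117 members, 339 carried 25% or more, 394 carried 10 to under 25% and 2384 carried under 10%. In the v2 WT libraries at E16.5 and P0, 73.4 to 87.2% of the members lay under 10% and in the v1 WT library 65.1% did, whereas in P0 Grhl3-/- 1 only 47.9% did and in P0 Grhl3-/- 2 it was 83.1%. The share of P0 Grhl3-/- 2 counts its members of low mitochondrial share and was not computed without them. At E16.5, 61.1% and 57.9% of the Grhl3-/- members lay under 10%. The classes also differed in markers of other epithelial cells. In E16.5 WT the summed upper follicle list stood at 2057 and 3001.5 CPM at 25% or more against 665 and 489 CPM under 10%. In P0 WT 1 it stood at 758 against 1431 CPM and in P0 WT 2 at 4118 against 1658 CPM.

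The genes named for these classes were chosen after their values were seen, and the rule's own keratins define the classes, so no test is given. In P0 WT 1, Krtdap rose from 3774 CPM at 25% or more through 5243 to 7451 CPM under 10%, Them5 from 145 through 239 to 571 CPM, and Sbsn, which encodes suprabasin, from 253 through 464 to 1041 CPM. Krt15, a keratin of basal and outer root sheath cells, fell from 5821 through 3965 to 1653 CPM, and Col17a1, a hemidesmosome collagen gene, from 221 through 47.8 to 12.1 CPM. Wnt4, a ligand gene, fell from 519.65 through 248.8 to 188 CPM, and Notch1, a receptor gene that promotes exit from the basal layer, from 116 through 69.7 to 42.2 CPM. P0 WT 2 gave the same order for these 7 genes. Lypd3, a surface protein gene of suprabasal cells, also rose, from 456 through 669 to 832 CPM in P0 WT 1. Some whole lists ran one way in both WT libraries and others did not. From 25% or more to under 10%, the hemidesmosome and basal list fell in P0 WT 1 from 9490 through 6211 to 2692 CPM. In P0 WT 2 it fell from 11261 through 7719.5 to 2908 CPM. The lipid barrier list rose from 3780 through 5140 to 8072 CPM in P0 WT 1 and from 3373 through 4204 to 6969 CPM in P0 WT 2. The Notch pathway genes and suprabasal transcription factors did not run one way in both. In P0 WT 1 the summed Notch pathway genes stood at 1237, 1290 and 979.6 CPM from 25% or more to under 10%, and the suprabasal transcription factors at 4868, 5010 and 4597 CPM. In P0 WT 2 the same sums were 1022, 958 and 877 CPM, and 5669.6, 5744 and 6037 CPM.

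At P0, 9 of 18 late envelope genes, 18 of 35 lipid barrier genes and 7 of 13 desmosome genes were lower in spinous members of Grhl3-/- mice than in v2 WT members, and 14 of 26 glycolysis and hypoxia genes were higher. Fewer of them passed with the spread of the P0 libraries alone, as given below for each list. The late envelope genes were read only in cells below the rule's limit on 4 late genes. Of 9272 genes tested across the sums of 12 libraries, 1574 passed at an adjusted p below 0.05 (edgeR), 17.0% of those tested, with 850 higher (9.17%) and 724 lower (7.81%) in Grhl3-/-, and the median difference of all genes was 0.01 on the log2 scale. That count rested on the spread estimated over all 6 groups. When the spread came from the 4 P0 libraries alone, 102 genes passed, 35 higher and 67 lower, 100 of them among the 1574. With the v1 library as another WT library, 120 passed, all of them among the 1574. Without the members of low mitochondrial share, 1717 passed, of which 1266 were shared. Leaving out WT 1 gave 843 and leaving out WT 2 gave 984.

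The late envelope genes were the list with the lowest median. Of 45 genes of this list outside the rule, 18 could be tested, 9 were lower and none was higher, with a median of -1.60 on the log2 scale against 0.01 over all genes (2 of the 9 passed in the P0 libraries alone, and 13 were lower without the members of low mitochondrial share). The rule had removed cells by 4 late genes, 70 and 68 in P0 WT against 0 and 10 in P0 Grhl3-/-. These levels therefore describe only the cells left below that limit. Of the 45 genes, 6 had no UMI in P0 WT members and 22 had none in P0 Grhl3-/- members. A gene could enter the test through its counts in WT alone. Spink5, an inhibitor of the epidermal kallikreins, stood at 93.4 and 62.3 CPM in WT and at 11.3 and 6.00 CPM in Grhl3-/-. Klk8, a kallikrein protease gene, stood at 170.2 and 187 CPM in WT and 71.5 and 44.0 CPM in Grhl3-/-. Without its members of low mitochondrial share, Grhl3-/- 2 held 14.2 CPM of Spink5 and 51.2 CPM of Klk8. Neither overlapped between genotypes, as held in one direction or the other for 50.7% of all tested genes at P0, and the log2 differences were -3.07 ± 0.33 and -1.58 ± 0.19 (± SE, edgeR, adjusted p = 0.00012 and 0.00022). Tgm1, the transglutaminase that cross-links the envelope, had 49.2 and 41.9 CPM in WT against 4.51 and 16 CPM in Grhl3-/-. Its difference of -2.31 ± 0.41 (adjusted p = 0.0024) no longer passed in the P0 libraries alone (adjusted p = 0.080). Klk7 and Klk5, Scel, Asprv1, Sprr1a and Krt77 made up the rest of the 9, with differences from -2.08 to -1.12.

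Lipid barrier genes followed. Of 35 tested, 18 were lower and 3 higher, with a median of -0.94 (4 lower and 1 higher in the P0 libraries alone). Without the members of low mitochondrial share, 20 were lower and 3 higher. Their summed level did not fall with these counts, at 7549.7 and 6598 CPM in WT against 7019 and 13010.0 CPM in Grhl3-/- (6737 and 8118 CPM without the members of low mitochondrial share), and Fabp5, which made up most of it, stood at 5412 and 4340 against 5816 and 11894 CPM. Elovl7, a fatty acid elongase gene, stood at 259 and 222 CPM in WT and at 42.2 and 34.0 CPM in Grhl3-/-, a difference of -2.62 ± 0.24 (edgeR, adjusted p = 1.9e-05). Nipal4, an ichthyosis gene of the lipid pathway, stood at 38.2 and 34.9 CPM against 6.76 and 7.0 CPM (-2.40 ± 0.27). Acer1, an alkaline ceramidase gene, stood at 78.2 and 154 CPM against 28.7 and 27.0 CPM (-2.02 ± 0.38). These 3 genes passed in all 4 fits named above, and the v1 WT library lay above both Grhl3-/- libraries for each, at 86.8, 29.1 and 163 CPM. Without its members of low mitochondrial share, Grhl3-/- 2 held 45.5, 14.2 and 34.2 CPM of them. Abca12, the transporter that loads lamellar granules, stood at 38.6 and 41.3 CPM against 5.63 and 2.00 CPM, yet the v1 WT library held 9.64 CPM. The 3 higher genes were Fabp5, Hmgcs1 and Scd2, of which Fabp5 carries fatty acids, Hmgcs1 makes cholesterol precursors and Scd2 desaturates fatty acids. Scd2 stood at 17.7 and 23.3 CPM in WT against 131 and 59.0 CPM in Grhl3-/-.

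Some cell junction genes were lower in Grhl3-/-. Of 13 desmosome genes tested, 7 were lower (median -0.79, 1 in the P0 libraries alone), among them Dsp, Jup, Perp and Evpl, and of 6 gap junction genes 3 were lower (1 in the P0 libraries alone), among them Gjb5. Without the members of low mitochondrial share, 9 desmosome genes were lower and none higher. In the same fit 3 gap junction genes were lower and 1 higher. Dsp, the plakin that ties keratin filaments to desmosomes, stood at 1250.1 and 1218 CPM in WT and 739 and 281 CPM in Grhl3-/-, with 504 CPM in Grhl3-/- 2 without the members of low mitochondrial share. The v1 WT library had 381 CPM, below Grhl3-/- 1 and above Grhl3-/- 2 over all members, and below both without the members of low mitochondrial share. Evpl, an envelope precursor that binds desmosomes, stood at 158 and 171 CPM against 58.6 and 27.0 CPM, and Gjb5, a connexin gene, at 87.7 and 115 CPM against 28.2 and 26.0 CPM. For both, the v1 WT library lay above the Grhl3-/- libraries, at 98.7 and 115 CPM. Among the 7, Dsg1a and Dsg1b are close copies that can share reads and are uncertain. Of 16 adherens and tight junction genes tested, 5 were lower and none higher, among them Cldn1 and Cldn4, and none passed in the P0 libraries alone. Without the members of low mitochondrial share, 5 were lower and none higher. Their summed level was 802 and 794 CPM in WT against 692 and 385 CPM in Grhl3-/-, with 585 CPM in the v1 WT library. Without the members of low mitochondrial share Grhl3-/- 1 and 2 held 700.2 and 640.5 CPM and the v1 WT library 584 CPM, below both.

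Early suprabasal genes gave 5 lower and 1 higher of 16 tested (median -0.48). The count was 9 lower and 1 higher without the members of low mitochondrial share (median -0.99), and 1 lower and 1 higher in the P0 libraries alone. Sbsn stood at 942 and 1063 CPM in WT, 1074 CPM in the v1 WT library and 245 and 257 CPM in Grhl3-/-, and passed in all 4 fits (-1.96 ± 0.20, edgeR, adjusted p = 6e-05). Sbsn was lower in every class of basal keratin share, for example 1041 and 1140.0 CPM in WT against 313 and 283 CPM in Grhl3-/- under 10%. Krtdap, the marker gene, stood at 7031 and 6870.2 CPM against 5386 and 3497 CPM (-0.63 ± 0.17, adjusted p = 0.020), a difference that did not pass in the P0 libraries alone (adjusted p = 0.27). Them5 depended on the cells counted, at 516 and 842 CPM against 291 and 983 CPM over all members (adjusted p = 1.0) and at 561 CPM in Grhl3-/- 2 without the members of low mitochondrial share, where its difference was -0.91 (adjusted p = 0.039).

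A plain case was Tppp3 (chr8:105467493-105471526, minus strand), a tubulin polymerisation-promoting gene that was on no list. It stood at 208 and 204 CPM in P0 WT, 210.5 CPM in the v1 WT library and 7.32 and 18.0 CPM in P0 Grhl3-/-. Without its members of low mitochondrial share, Grhl3-/- 2 held 19.9 CPM. At E14.5 and E16.5 Tppp3 stood at 1.18 to 23.5 CPM in both genotypes. Basal cells gave the same picture, with 211 and 140 CPM in P0 WT against 5.96 and 2.65 CPM in P0 Grhl3-/-. The P0 Grhl3-/- members were thus at the level of the embryonic ones (difference at P0 -4.13 ± 0.34, edgeR, adjusted p = 9.8e-06). Gsn, the actin-severing gelsolin gene, stood at 326 and 361 CPM in WT, 234 CPM in v1 WT and 52.4 and 34.0 CPM in Grhl3-/-, and Clu, the clusterin gene, at 235 and 235, 99.3, and 43.4 and 24.0 CPM. Without its members of low mitochondrial share, Grhl3-/- 2 held 48.4 CPM of Gsn and 34.2 CPM of Clu. Krt78, a suprabasal keratin gene, was read at 23.5 and 76.5 CPM in WT, 18.2 CPM in v1 WT and 1.13 and 0 CPM in Grhl3-/-. In all, 42 genes passed in all 4 fits, 10 higher and 32 lower in Grhl3-/-, among them also Rdh12 of retinol metabolism, Rarres1, Cyp2b10 and the phospholipase genes Pla2g2f and Pla2g4f.

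**Figure D3:**
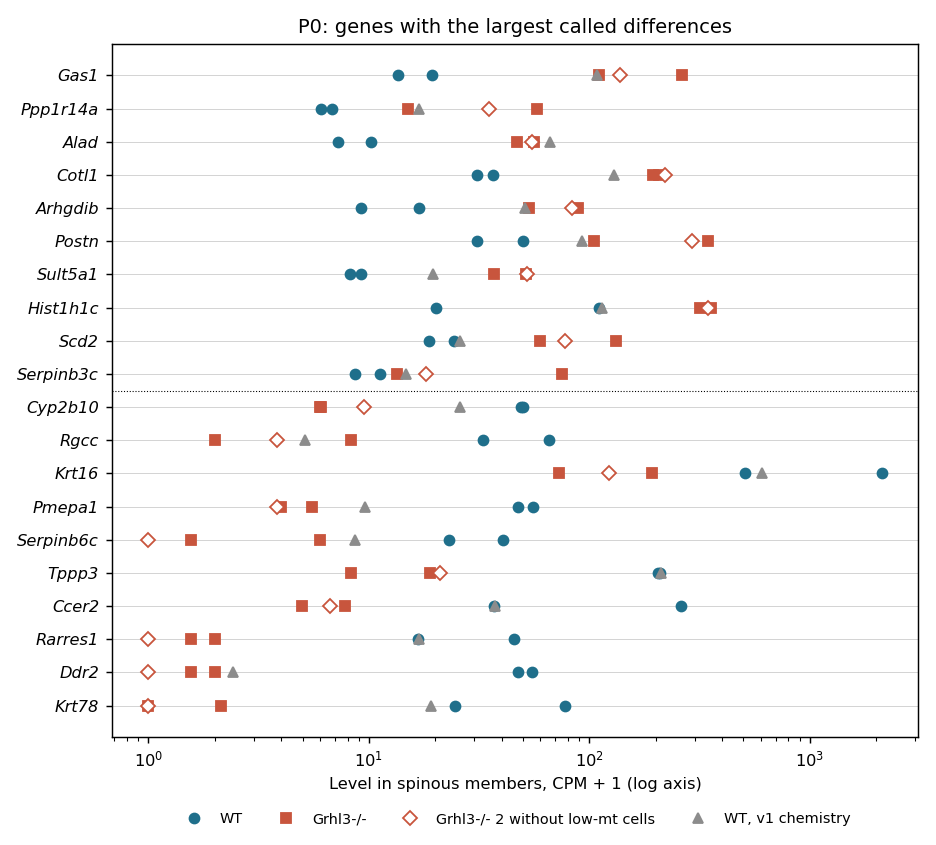
Levels in P0 spinous members (horizontal axis, CPM + 1, log scale) of the genes with the highest and lowest called differences, 10 each way, with 1 point per library for WT, Grhl3-/-, Grhl3-/- 2 without members of low mitochondrial share, and the v1 WT library. For Tppp3 the 3 WT points sit at 204 to 210.5 CPM and both Grhl3-/- points over all members at or below 18.0 CPM. The point of Grhl3-/- 2 without members of low mitochondrial share sits at 19.9 CPM. For Gas1, Alad and Ddr2, in contrast, the v1 WT point sits with Grhl3-/-.

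Glycolysis and hypoxia genes were higher. Of 26 tested, 14 were higher and 1, Hk2, lower, with a median of 0.77 (2 higher and none lower in the P0 libraries alone). Without the members of low mitochondrial share, 12 were higher and 1 lower, with a median of 0.63. Tpi1, a glycolytic isomerase gene, stood at 242 and 249.9 CPM in WT and 716 and 814 CPM in Grhl3-/- (1.69 ± 0.18, edgeR, adjusted p = 8.6e-05), with v1 WT between at 452 CPM. Slc16a3, the lactate exporter gene, stood at 0.884 and 2.59 CPM in WT, 1.43 CPM in v1 WT and 29.3 and 18.0 CPM in Grhl3-/- (3.70 ± 0.40). Ldha, which interconverts pyruvate and lactate, stood at 363 and 360.0 CPM against 999 and 658 CPM, but at 1051 CPM in v1 WT. Tpi1 and Slc16a3 passed in all 4 fits and Ldha in neither the P0 libraries alone nor the fit with v1. The higher level was not particular to spinous members. The summed list stood at 5019 and 4888 CPM in v2 WT against 7872 and 9082 CPM in Grhl3-/- in the members. Without the members of low mitochondrial share, Grhl3-/- 2 held 8078 CPM. It stood at 3177 and 3517 against 5604 and 5661 CPM in basal cells and 4448 and 4500.4 against 6776 and 6337 CPM in dividing cells. In cells of other lineages it stood at 3688 and 3942 against 6334 and 5991 CPM. The v1 WT library held 5939 CPM in members and 4290 CPM in basal cells. It held 5344 CPM in dividing cells and 5761 CPM in cells of other lineages. In each class it lay above both v2 WT and below both Grhl3-/- libraries.

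Cell cycle genes that the rule did not use were higher in 10 of 33 tested and lower in none (median 0.57, none called in the P0 libraries alone), although at most 1 of the 6 cycle genes of the rule was detected in a member. Without the members of low mitochondrial share, 8 were higher and none lower. Hmgb2, a chromatin protein gene, stood at 109 and 119 CPM in WT and at 148 and 208 CPM in Grhl3-/-, and Cks2, which encodes a cyclin-dependent kinase subunit, at 29.5 and 29.8 against 70.4 and 52.0 CPM. The v1 WT library held 228 CPM of Hmgb2 and 32.3 CPM of Cks2. The summed level of the list was 967 and 948 CPM in WT, 1655 and 1525 CPM in Grhl3-/- and 2179 CPM in the v1 WT library, above both Grhl3-/- libraries, so the list was not higher in Grhl3-/- against that WT library. Without the members of low mitochondrial share, the list summed to 1664 and 1805 CPM in Grhl3-/-. In the v2 libraries it was also higher in Grhl3-/- in basal cells, at 1891 and 2035 against 3368 and 4129 CPM, and in cells of other lineages, at 7861 and 7786 against 9261 and 9721 CPM. Over the classes of basal keratin share in P0 WT, the summed level of this list was 1237 and 1314 CPM at 25% or more, 1497 and 1156 CPM at 10 to under 25% and 892 and 911 CPM under 10%, with the under 10% class lowest in both libraries. Among the inhibitor and G1 genes, 7 of 22 were higher and 1 lower (5 and 3 without the members of low mitochondrial share). Cdkn1c, which encodes the cyclin-dependent kinase inhibitor p57, stood at 3.01 and 1.42 CPM in WT, 6.78 CPM in v1 WT and 15.2 and 23.0 CPM in Grhl3-/-, and had stood at 129 to 508 CPM in all embryonic libraries.

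Of 31 transcription factor genes tested, 6 were lower and 1 was higher (median -0.29), and without the members of low mitochondrial share 12 were lower and 1 higher (median -0.45). Klf4, a driver of late differentiation, stood at 876 and 1001 CPM in WT, 582 CPM in v1 WT and 269 and 509.7 CPM in Grhl3-/-, and Grhl1, a paralogue of Grhl3, at 126 and 139, 76.1, and 51.8 and 72.0 CPM. Neither passed in the P0 libraries alone. Of 19 Notch pathway genes 3 were lower (among them Notch2) and 1 was higher (Hes6), and of 34 Wnt pathway genes 3 were lower (Axin2, Dkkl1 and Fzd10) and 1 was higher (Wnt10b). Without the members of low mitochondrial share, 3 were lower and 3 higher of 20 Notch pathway genes, and 5 lower and 2 higher of 35 Wnt pathway genes. Over all members, Wnt4 had 214 and 182 CPM against 189 and 48.0 CPM (edgeR, adjusted p = 0.17), and Lef1, a nuclear effector of Wnt signals, 5.13 and 4.25 against 13.5 and 6.00 CPM (adjusted p = 0.10). The values of Grhl3-/- 2, 48.0 and 6.00 CPM, count its 82 of 124 members of low mitochondrial share. These 2 genes are not given here without them. Such members of that library held 764 CPM of the Wnt list. The summed Wnt list stood at 1311 and 1383 CPM in WT against 1243 and 1052.5 CPM in Grhl3-/-. Without the members of low mitochondrial share it stood at 1311 and 1385 against 1246 and 1585.5 CPM. None of the 4 Wnt calls passed in the P0 libraries alone.

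Among genes of the basal layer and of the barrier alarm, Krt15 stood at 2112 and 2574 CPM in WT and at 9928 and 3727 CPM in Grhl3-/- (1.54 ± 0.36, edgeR, adjusted p = 0.010), where Grhl3-/- 2 held 6462 CPM without its members of low mitochondrial share. Krt15 did not pass in the P0 libraries alone or with the v1 library, at 3685 CPM, as another WT library (adjusted p = 0.10 and 0.11). Of 22 hemidesmosome and basal genes tested, 3 were higher and 1 lower (median 0.47), none of them in the P0 libraries alone, and 6 were higher and 2 lower without the members of low mitochondrial share. The list summed to 3419 and 3659 CPM in WT against 11960.0 and 4518 CPM in Grhl3-/-, or 12157 and 8070.0 CPM without those members. In the members under 10% basal keratins, Krt15 stood at 1653 and 2089 CPM in WT against 8044 and 2832 CPM in Grhl3-/-, and the list at 2692 and 2908 against 9578 and 3281 CPM. The Grhl3-/- 2 values of this class include members of low mitochondrial share. Such members of that library held 2595 CPM of the list, against 8070.0 CPM in its other members. The class was not read without them, so the part of each Grhl3-/- library in the difference was not tested. Stfa3, of the stefin cluster whose near-identical copies share reads, stood at 10775 and 7008 CPM in WT, 3310 CPM in v1 WT and 16179 and 41036 CPM in Grhl3-/-, of which Grhl3-/- 2 fell to 22647 CPM without its members of low mitochondrial share. Of 18 barrier alarm genes tested, 3 were higher and 1 lower (median 0.25), but without those members 1 of 17 was higher and 2 were lower (median -0.26), and the summed list of Grhl3-/- 2 fell from 65648 to 39587 CPM. The rule itself removed cells by the alarm genes Krt6a and Sprr2a3, 15 and 5 of them in P0 WT against 24 and 66 in P0 Grhl3-/-, so the levels of alarm genes here describe only the cells left below that limit and give no direction for the alarm state. Among these cells, the alarm keratin Krt16 stood at 2120.0 and 508 CPM in WT, 607 CPM in v1 WT and 72.1 and 191 CPM in Grhl3-/-. The glucocorticoid-responsive Tsc22d3 and Fkbp5 were lower in Grhl3-/-, at 283 and 465 against 57.4 and 174 CPM and at 138 and 142 against 77.2 and 63.0 CPM, but the v1 WT library had 10.7 and 6.78 CPM.

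The v1 library lay nearer to the WT than to the Grhl3-/- mean for 503 of the 1574 called genes (32.0%), for 185 of the 850 higher genes (21.8%) and for 318 of the 724 lower genes (43.9%). Its chemistry and its animal cannot be told apart. A difference of the same sign and at least 50% of the size was present in the cells of other lineages for 552 of the 1574 genes (35.1%). Some marker lists of other cells in the P0 members were higher in both Grhl3-/- libraries than in both v2 WT libraries. The summed endothelial cell and pericyte list stood at 1.77 and 1.53 CPM in WT, 5.63 and 4.0 CPM in Grhl3-/- and 7.32 CPM in v1 WT, with 1 of 3 tested genes, Egfl7, called higher. The red blood cell list stood at 1.59 and 0.708 CPM, 6.2 and 15.0 CPM, and 1.61 CPM in the same order with none of 6 called, and the T cell list at 2.48 and 26.1, 42.8 and 39.0, and 9.11 CPM with its 1 tested gene not called. The summed Langerhans cell and macrophage list stood at 218 and 151 CPM in WT and at 734 and 95.95 CPM in Grhl3-/-, with H2-Ab1 called higher of 12 tested and 4 higher without the members of low mitochondrial share. The part of these cells in the differences above was not tested.

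**Figure D4:**
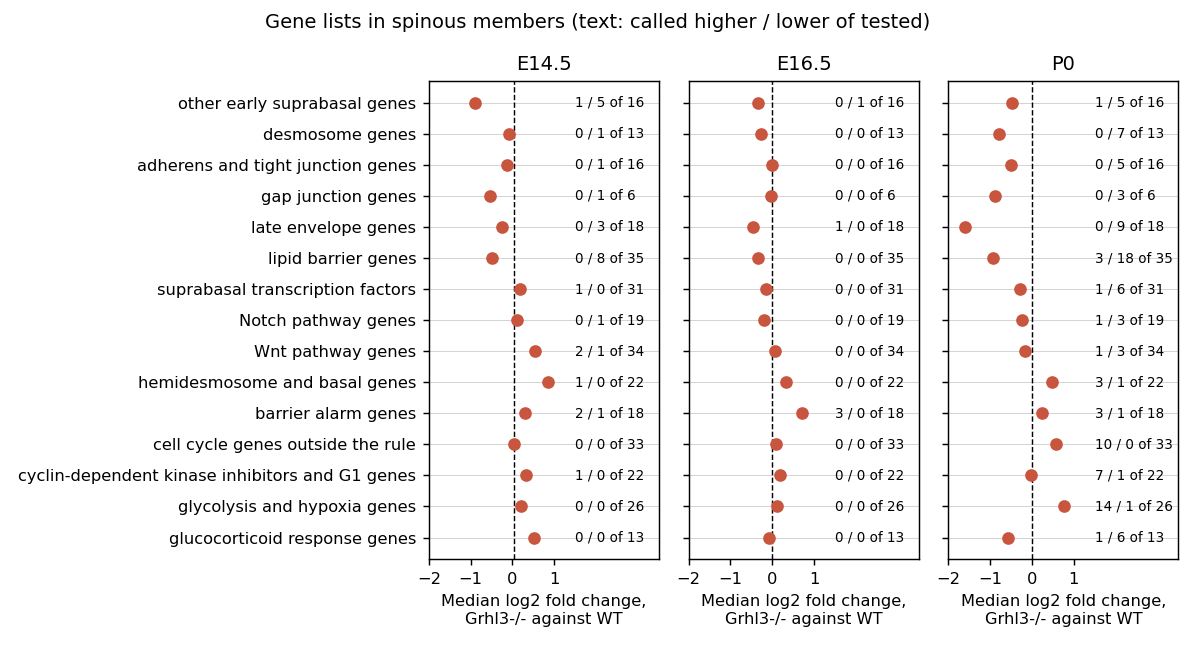
Median log2 difference of Grhl3-/- against WT spinous members (horizontal axis) over the tested genes of 15 lists (vertical axis) at E14.5, E16.5 and P0, with the median of all tested genes as a dashed line and, at the right of each panel, the number of genes called higher and lower of those tested. Late envelope genes lie lowest at P0, at -1.60 with 9 of 18 lower, and glycolysis genes highest of the 15, at 0.77 with 14 of 26 higher.

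The textbook binding sequence of Grainyhead-like factors, AACCGGTT, was looked for on both strands in the 300 bases from 250 before to 50 after each start site of the RefSeq promoter table. Of the 7133 tested genes matched there, 26 (0.365%) held it, against 1 of 559 lower at P0 (0.179%), 1 of 664 higher (0.151%) and 48 of all 32851 promoters (0.146%). The core AACNNGTT, which contains the former, was held by 18 of 559 lower genes (3.22%), 29 of 664 higher genes (4.37%), 4.16% of the tested genes and 4.20% of all promoters. The 2 called genes with the full sequence were Sgms1, a sphingomyelin synthase gene of the lipid list, at 32.7 and 34.9 CPM in WT against 24.8 and 11 CPM in Grhl3-/-, and Xpo1, the nuclear export receptor gene, at 14.3 and 15.4 against 37.2 and 18.0 CPM. Their promoters are shown from RefSeq on GRCm38.p6, 5' to 3' on the gene's strand, with AACCGGTT in capitals, Sgms1 at chr19:32349267-32349566 (minus strand) and Xpo1 at chr11:23255791-23256090 (plus strand).
Sgms1: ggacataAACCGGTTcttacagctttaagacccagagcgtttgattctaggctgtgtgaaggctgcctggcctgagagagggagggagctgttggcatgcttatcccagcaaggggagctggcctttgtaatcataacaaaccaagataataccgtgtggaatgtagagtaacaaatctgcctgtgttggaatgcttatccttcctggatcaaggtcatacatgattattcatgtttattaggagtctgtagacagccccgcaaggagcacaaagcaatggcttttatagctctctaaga
Xpo1: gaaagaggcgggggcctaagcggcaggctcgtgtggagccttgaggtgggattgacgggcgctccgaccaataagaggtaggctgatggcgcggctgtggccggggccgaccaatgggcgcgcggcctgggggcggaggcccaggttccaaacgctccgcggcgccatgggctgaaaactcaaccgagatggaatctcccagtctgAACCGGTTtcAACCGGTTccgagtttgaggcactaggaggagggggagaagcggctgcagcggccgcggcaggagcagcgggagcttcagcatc

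At E14.5, when the epidermis is first stratifying, spinous members of Grhl3-/- embryos already differed from WT in a smaller set of genes. Krt15 and other genes that WT members carried at E16.5 were higher, and Rdh12, 8 of 35 lipid barrier genes and 3 of 18 late envelope genes were lower. Of 9272 genes 144 passed (edgeR), 1.55% of those tested, with 41 higher (0.442%) and 103 lower (1.11%). Leaving out a single library gave 19 (without Grhl3-/- 2), 35 (without either WT library) or 47 (without Grhl3-/- 1), so the count rested on each of the 4 libraries. It was 74 without members that carried transcripts of other lineages, and 293, with 143 shared, without the members of low mitochondrial share. At E14.5 these were only 0 and 0 members in WT and 1 and 3 in Grhl3-/-. The fit shares its spread over all 6 groups, including E16.5 and P0, where more members were left out. The part of the other ages in this count was not tested.

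Krt15 (chr11:100131758-100135928, minus strand) stood at 35.8 and 59.2 CPM in E14.5 WT and at 1708 and 1707 CPM in E14.5 Grhl3-/-. In E16.5 WT it stood at 2871 and 2417 CPM. The Grhl3-/- members thus lay far above WT of their own age and below WT of the next (difference at E14.5 5.14 ± 0.45, edgeR, adjusted p = 3.8e-05). In cells of other lineages Krt15 stood at 30 and 54.8 CPM in WT and at 59.5 and 203 CPM in Grhl3-/-. Stfa3 stood at 241 and 128 CPM in WT, 1625 and 1441 CPM in Grhl3-/- and 5508 and 6010.1 CPM in E16.5 WT, and BC100530 of the same cluster at 222 and 173, 1579 and 1535, and 5384 and 4858 CPM. Pou3f1, a POU factor gene of suprabasal cells, stood at 5.65 and 3.55, 43.0 and 43.8, and 185 and 198 CPM. Sostdc1, a secreted inhibitor of Wnt and BMP signals, stood at 9.42 and 14.2, 77.8 and 95.1, and 147 and 98.5 CPM. In the same order, Krt77, a type II keratin gene, went the other way, at 465 and 559.6, 96.3 and 80, and 22.5 and 20.1 CPM. For these 6 genes the E14.5 Grhl3-/- members lay between E14.5 WT and E16.5 WT, and both differences share the E14.5 WT libraries.

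Other genes did not lie between. Rdh12, a retinol dehydrogenase gene, stood at 162 and 172 CPM in E14.5 WT, 8.89 and 5.17 CPM in E14.5 Grhl3-/- and 89.2 and 82.6 CPM in E16.5 WT. Endou, an endoribonuclease gene, stood at 256 and 181, 20.7 and 13.1, and 406 and 421 CPM, and Acer1 at 43.3 and 20.1, 2.96 and 1.97, and 125 and 101 CPM. For these genes the E14.5 Grhl3-/- members had the lowest level of the 3 groups. Cotl1, which encodes an actin-binding coactosin, and Mfge8, a secreted integrin ligand, had the highest, Cotl1 at 39.6 and 49.7, 312 and 328, and 169 and 173 CPM and Mfge8 at 13.2 and 5.92, 99.3 and 117, and 36.6 and 35.9 CPM. Rdh12 and Acer1 were also lower in Grhl3-/- at P0, where they passed in all 4 fits.

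The lists at E14.5 gave few calls each. Early suprabasal genes were lower in 5 and higher in 1 of 16 (median -0.90 against 0.03 over all genes), with Sbsn at 1242 and 1115 CPM in WT against 462 and 416 CPM in Grhl3-/- and the galectin gene Lgals7 higher, at 5798 and 5129 against 11172 and 12841 CPM. Lipid barrier genes were lower in 8 of 35 and higher in none (median -0.48), among them Elovl1, Elovl4, Sptlc1, Sptlc3, Nipal4, Abca12 and Sult2b1. Late envelope genes were lower in 3 of 18, Scel, Krt77 and Cnfn, the last at 24.5 and 15.4 CPM in WT and listed at 0 in both Grhl3-/- libraries. The rule had removed 0 and 3 cells by the 4 late genes in E14.5 WT and 0 and 0 in E14.5 Grhl3-/-. Krtdap stood at 6699 and 5342 CPM against 2966 and 2756 CPM (-1.07 ± 0.17, adjusted p = 0.0045). Of the marker lists of other cells, no list showed more than 1 call, and the summed fibroblast list stood at 439 and 529 CPM in WT and 699 and 641 CPM in Grhl3-/-.

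Of the Wnt pathway genes at E14.5, 2 of 34 were higher, Wnt6 and Sostdc1, and Dkkl1 was lower. Wnt6, a ligand gene, stood at 1.88 and 1.18 CPM against 20.7 and 16 CPM. Dkkl1, related to the Dickkopf inhibitors, stood at 92.3 and 75.7 CPM against 6.67 and 7.39 CPM (-3.52 ± 0.49, edgeR, adjusted p = 0.0016). Wnt4 was at 60.3 and 80.5 CPM against 80.8 and 106 CPM and did not pass (adjusted p = 0.76). Hspb1, a small heat shock protein gene, was lower in Grhl3-/-, at 5327 and 4527 against 1662 and 2030.0 CPM.

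**Figure D5:**
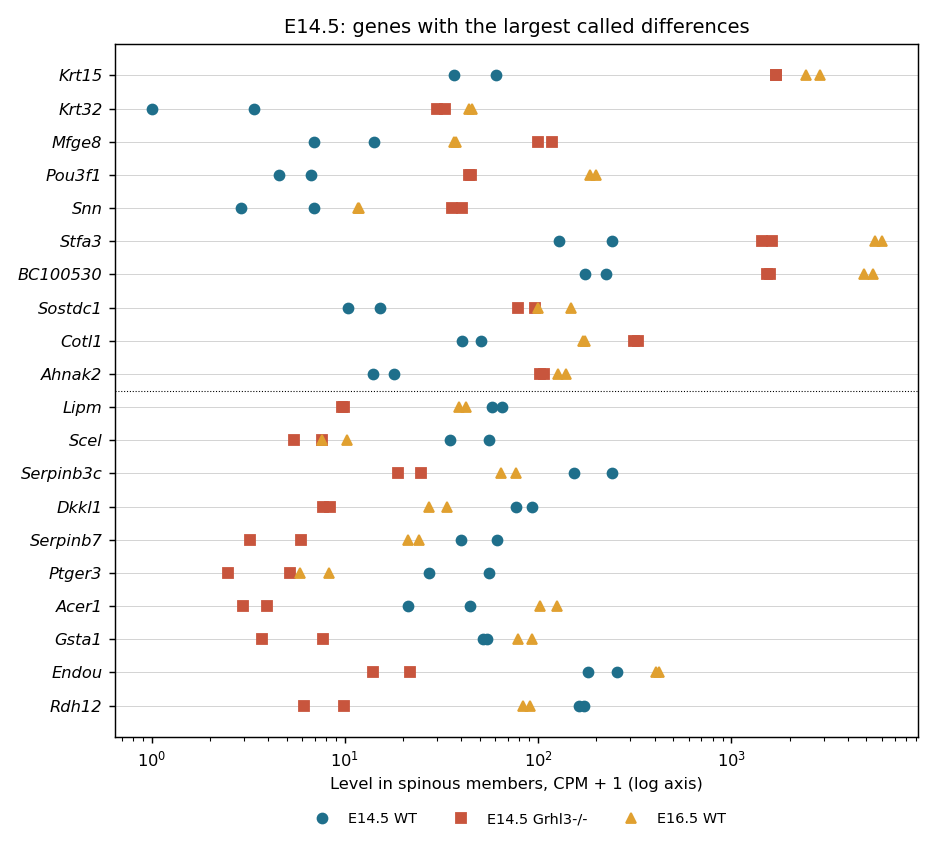
Levels in spinous members (horizontal axis, CPM + 1, log scale) of the genes with the highest and lowest called differences at E14.5, 10 each way, with 1 point per library for E14.5 WT, E14.5 Grhl3-/- and E16.5 WT. Krt15, Pou3f1 and Stfa3 of E14.5 Grhl3-/- lie between the WT ages, and Rdh12, Endou and Acer1 lie below both.

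At E16.5, few genes separated the genotypes. Members under 0.5% mitochondrial UMIs made up 3.38% and 2.26% in WT against 11.1% and 15.8% in Grhl3-/-. In Grhl3-/- they held 34764 and 46806 CPM of barrier alarm genes against 13934 and 14082 CPM in the other members. In WT the values were 20413 and 24117 against 11788 and 11589 CPM. Of 9272 genes 16 passed (edgeR), 0.173% of those tested, 11 higher (0.119%) and 5 lower (0.0539%), and 756 had an unadjusted p below 0.05. Leaving out WT 1 left 1 call and leaving out Grhl3-/- 2 left 9, and 3 were called without members that carried transcripts of other lineages. Sprr1b, a small proline-rich envelope gene induced in stressed epidermis, stood at 21.7 and 37.8 CPM in WT and at 408 and 655 CPM in Grhl3-/- (4.10 ± 0.54, adjusted p = 0.0048). At P0 it stood at 20.2 and 13.7 against 5.07 and 48.0 CPM. These are levels after the rule had removed 12 and 9 cells by Krt6a and Sprr2a3 in E16.5 Grhl3-/- and none in E16.5 WT. At P0 the rule had removed 15 and 5 cells in WT and 24 and 66 in Grhl3-/-. Among the members left, Sprr1b was higher in Grhl3-/- at E16.5, and at P0 the Grhl3-/- libraries lay on either side of WT. The test of the difference between the effects passed (-3.59 ± 0.80 on the log2 scale, edgeR, adjusted p = 0.041). It used the same remaining members and so gives no direction for the alarm state at either age. In all, the Grhl3-/- effect differed between P0 and E16.5 in 140 of 9272 genes (1.51%), with 80 more positive at P0 (0.863%) and 60 more negative (0.647%), a count that was 30 without members carrying transcripts of other lineages and 817 without P0 Grhl3-/- 1.

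The actin-binding genes Tpm2, Tagln2 and Capg and the calcium-binding S100a6 were also higher at E16.5. Tpm2 stood at 25.7 and 25.7 CPM in WT and at 89.6 and 156 CPM in Grhl3-/-, and Tagln2 at 81.6 and 89.9 against 203 and 293 CPM. Stfa1 was high in 1 library only, at 719 CPM in Grhl3-/- 1 against 15.4 CPM in Grhl3-/- 2 and 9.64 and 14.4 CPM in WT. Car3 and Fabp4, genes of fat cells among others, were called higher. Car3 stood at 1.61 and 0.443 CPM in WT members against 31.7 and 36.6 CPM in Grhl3-/- members (edgeR, adjusted p = 0.044), and at 35.9 and 0.827 against 1044 and 565 CPM in cells of other lineages. Fabp4 stood at 11.7 and 8.63 against 60.6 and 96.4 CPM in members (adjusted p = 0.0060) and at 290.5 and 263 against 983 and 578 CPM in cells of other lineages. Calml3, a calmodulin-like gene of keratinocytes, was lower, at 84.4 and 70.2 CPM in WT against 8.15 and 5.78 CPM (-3.37 ± 0.61, adjusted p = 0.044). No desmosome, gap junction, lipid barrier or cell cycle gene was called at E16.5, with list medians of -0.26, -0.03, -0.33 and 0.09.

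In WT members, E16.5 differed from E14.5 in 774 of 9272 genes (edgeR, 8.35% of those tested), 409 higher (4.41%) and 365 lower (3.94%). Desmosome genes were higher in 6 of 13 and lower in 1, and early suprabasal genes higher in 7 of 16 and lower in none. Calm4, a calmodulin gene of skin, rose from 279 and 310.0 CPM to 2537 and 2496 CPM, and Ly6d rose as given above (3.49 ± 0.44, adjusted p = 0.00018). Jag1, a Notch ligand gene, fell from 90.5 and 88.7 to 25.3 and 31.6 CPM, and Cldn4, a tight junction gene, from 171 and 175 to 37.0 and 34.7 CPM. Leaving out 1 of the 4 libraries at a time gave 185 to 411 calls, the lowest without E14.5 WT 2. Markers of other cells rose too, in 5 of 9 fibroblast genes and both mast cell genes tested, and 155 of the 774 (20%) had a like difference in other-lineage cells.

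From E16.5 to P0, 3680 WT genes differed (39.7% of those tested), 1880 higher (20.3%) and 1800 lower (19.4%). Preparation and sex changed together with age between these libraries and cannot be told apart from it. Here 2268 of the 3680 (61.6%) differed alike in the cells of other lineages, and 928 passed with the v1 library included. Without E16.5 WT 2 there were 1907 and without E16.5 WT 1 there were 2450 calls. Transcripts of dermis and blood were nearly gone, with the globin gene Hbb-bs at 4526 and 4894 CPM at E16.5 and 0.884 and 0.118 CPM at P0. Cdkn1c fell from 177 and 205 to 3.01 and 1.42 CPM, and 20 of 33 cell cycle genes fell while 1 rose. The cell cycle list summed to 2316 and 2245 CPM at E16.5 and 967 and 948 CPM at P0, but to 2179 CPM in the v1 P0 WT library, so this fall was not present in that library. Late envelope genes rose in 10 of 18 and fell in 1, Klk7 from 11.2 and 6.2 to 88.4 and 123 CPM. Gja1, the connexin gene of early layers, fell from 752 and 854 to 196 and 159 CPM, while Gjb5 rose from 35.0 and 35.2 to 87.7 and 115 CPM. Of 13 glucocorticoid-responsive genes 10 rose and 2 fell. The v1 WT library gave 10.7 CPM of Tsc22d3 against 89.2 and 88.3 CPM at E16.5 and 283 and 465 CPM at P0, so this rise was not present in that library.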

How the data were processed

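Skin cells were profiled by droplet 3' RNA sequencing in 13 libraries. The authors deposited, per library, a matrix of raw UMI counts for 27998 gene identifiers (27933 symbols) on mm10. The submitters' processing notes name Cell Ranger 1.3.1 and Seurat. No column of per-sample values was left unused.

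Cells with 600 to 4800 genes (embryos) or 900 to 7700 (P0) and at most 10% mitochondrial UMIs were kept. Doublets were not removed, and leaving out the 5% of cells with the highest Scrublet scores of their library (scanpy 1.11.5, Python 3.11.15) was an alternative. Counts of the member cells were summed per library, since cells are not replicates. Sums of the 12 v2 libraries were fitted together with edgeR 4.0.16 in R 4.3.3 (TMM, filterByExpr, quasi-likelihood test, group means, Benjamini-Hochberg adjustment, calls at an adjusted p below 0.05), which tested 9272 genes. Where labels do not name separate animals, p-values measure only the spread between libraries. Shares were compared by exact permutation tests. Members and gene lists were chosen with earlier results of these data known, so counts over lists are descriptions. Genes named in the text were, per comparison, the 10 with the largest called differences each way at 30 CPM or more in the higher group and no overlap between groups (without rule genes, unnamed models and mitochondrial or sex-linked genes), up to 4 called genes per list, the markers, Grhl3, Wnt4, Lef1 and Dkkl1. Genes named beyond these, such as Hbb-bs, Cks2, Abca12, Nipal4, the remaining genes called in all 4 P0 fits and the class examples, were chosen after their values were seen. The 4 P0 fits used all members, the P0 libraries alone, the v1 library in addition, and members at or above 0.5% mitochondrial UMIs. Alternatives were DESeq2 1.42.0 size factors and its Wald test, no filter on low counts, a replicate block, each replicate left out, the changed fits and stricter choices of cells. The limit of 0.5%, the class of under 10% basal keratins and the removal of sex-linked genes were chosen after seeing the data. Coordinates are from GENCODE mouse release 21 (GRCm38) and promoters from RefSeq. The scripts were tested on simulated counts. Of 669 listed symbols, 660 matched. Some genes are not reported here. Counts of 3' tags do not allow levels to be compared between genes, and intervals cover counting error only.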

Additional observations from a re-analysis of the deposited data

Results flagged for a closer look

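The share of spinous members differed in its Grhl3-/- effect between ages, with E14.5 minus P0 at 46.4 percentage points (exact permutation test, p = 0.0556, the smallest that 36 arrangements allow). The E14.5 libraries held 3 to 7 basal cells each and the P0 v2 libraries 294 to 1123, so the shares are not of like populations.

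For 23 named genes the Grhl3-/- effect at P0 differed from that at E16.5 in a test of the difference itself (edgeR, adjusted p from 0.00052 to 0.05, 140 of 9272 genes in all, 1.51%). On the log2 scale, P0 minus E16.5 was positive for Gas1 (2.98), Alad (2.87), Cotl1 (2.67), Postn (2.65), Krt32 (2.60), Sult5a1 (2.59), Krt15 (2.32), Scd2 (2.21), Arhgdib (1.93), Ldha (1.06) and Cdkn1c (3.17). It was negative for Ddr2 (-6.72), Krt16 (-6.44), Tppp3 (-5.29), Cyp2b10 (-4.38), Sprr1b (-3.59), Pmepa1 (-3.18), Tagln2 (-2.20), Gjb5 (-2.19), Fzd10 (-1.95), Dst (-1.88), Hspa8 (-1.37) and Sbsn (-1.31). Krt16, a keratin of the barrier alarm, stood at 54.2 and 104 CPM in WT against 529 and 896 CPM in Grhl3-/- at E16.5 and 2120.0 and 508 against 72.1 and 191 CPM at P0. These are members left after cells had been removed by the alarm genes Krt6a and Sprr2a3 (0 and 0 in WT against 12 and 9 in Grhl3-/- at E16.5, and 15 and 5 against 24 and 66 at P0). The reversal of Krt16 and the value of Sprr1b therefore give no direction for the alarm state. At P0 the v1 WT library, at 108, 65.5, 128, 49.8, 1051, 91.8 and 18.6 CPM for Gas1, Alad, Cotl1, Arhgdib, Ldha, Postn and Sult5a1 and at 1.43, 8.57, 49.8 and 18.7 CPM for Ddr2, Pmepa1, Dst and Fzd10, lay nearer to the Grhl3-/- than to the WT mean on the log2(CPM + 1) scale. The part of the WT libraries in these differences was not tested.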

How the results depend on the processing

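Over 385 results and 6047 comparisons with an alternative, 4999 kept their direction and side of the threshold, 1004 kept the direction but no longer passed, 18 newly passed and 26 reversed. The mean share difference (-6.09) kept its sign but not its size. It was -1.79 at 50 and -15.6 at 200 Krt1 and Krt10 UMIs per 10000 (exact permutation test, p = 0.648 and 0.0556), -9.72 thinned to 2000 UMIs (p = 0.213), -2.14 as a share of all cells, and -7.23 to -4.95 with 1 library left out. The count at P0 (1574) was 969 in members with none of the 6 cycle genes, 102 in the P0 libraries alone, 120 with v1, 1058 by DESeq2's Wald test, and 843 to 2015 with 1 library left out. At E16.5 (16) it was 27 by the Wald test, 161 with no filter, 3 without members carrying markers of another cell type, 6 under 25% and 6 under 10% basal keratins, 4 with no cycle gene, 58 without members of low mitochondrial share and 1 to 15 with 1 library left out. At E14.5 (144) the same settings gave 347 with no filter, 74, 88 under 10%, 51 and 293, and 19 to 47 with 1 library left out. The difference of effects (140) gave 230, 434, 30, 89 under 25%, 34 under 10%, 44, 394 and 42 to 817 (highest without P0 Grhl3-/- 1). Between WT ages, 774 became 401 without other markers, 427 with no cycle gene and 185 to 411 with 1 library left out, and 3680 became 2268, 928 with v1 and 1907 to 2750. The count at P0 was also 1331 under 25% and 1050 under 10% basal keratins. The causes were not tested.

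Reversals concerned values that had mostly not passed, as log2 differences. With 1 library left out, the P0 values ran from -0.14 to 2.72 for H2-Ab1 (lowest without Grhl3-/- 1), -1.03 to 0.11 for Grhl3, -1.36 to 0.11 for Ly6d and -1.32 to 0.68 for Them5, the E16.5 values from -0.02 to 0.20 for Wnt4 and -1.28 to 0.31 for Lef1, the E14.5 value of Ly6d from -0.77 to 0.54, and from E16.5 to P0 in WT from -0.03 to 0.16 for Ly6d and -0.35 to 0.28 for Them5. Them5 at P0 also gave -0.11 with no filter, -0.26 with the block, -0.91 without members of low mitochondrial share and -0.07 with v1. At E16.5, Wnt4 gave -0.01 with no filter and at 5% mitochondrial UMIs, Lef1 0.12 with no cycle gene and Dkkl1 0.24 without other markers, and at E14.5 Ly6d gave 0.23 with no cycle gene. Between the later WT ages, Them5 gave 0.17 without other markers, 0.05 with no cycle gene, 0.01 without low mitochondrial share and 0.05 with v1, and between the earlier ones Krt17 gave -0.68 under 10% basal keratins.

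Replicate numbers only name samples: the correlation of same-numbered deviations was 0.119 at E14.5, -0.00275 at E16.5 and -0.0407 at P0 (1787 genes). With the replicate block, 1171 genes passed at P0, 17 at E16.5, 116 at E14.5, 127 for the difference of effects, 649 and 3113 between WT ages, and the share difference stayed at -6.09 (exact permutation test, p = 0.531). Depth limits the E14.5 WT and E16.5 Grhl3-/- groups most, with 38 to 72 members per library.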
